A study of Homo sapiens with 12 samples.

Results

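The 10 genes described here were RASGRP1, EGR1, FOS, JUN, DUSP5, DUSP6, SPRY1, SPRY2, NR4A1 and CD69, which are activation genes and feedback regulators of RAS-MAPK signalling. They were found by matching Ensembl identifiers to these symbols, and all 10 had 1 row in each of the 2 tables of 58288 genes. RNA-Seq was made from HPB-ALL and KOPTK1, which are established human T-cell acute lymphoblastic leukemia (T-ALL) lines. By the labels, each line gave 3 Control samples expressing shGFP and 3 samples expressing shRNA against SHQ1, and all were kept for 48 h with 2 μg/ml puromycin, which selects infected cells. shSHQ1 lowers SHQ1, an assembly factor of H/ACA ribonucleoproteins, and every library came from cells carrying an shRNA vector.

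Each table held 6 columns of read counts headed only by numbers. These numbers match no label of a sample, so the columns could be tied to a cell line, through the table they are in, but not to Control or shSHQ1. The effect of SHQ1 knockdown on these genes was therefore not tested. The libraries are named by their column numbers, 7 to 12 in HPB-ALL and 1 to 6 in KOPTK1, and every comparison below is between the lines, with both shRNAs in each.

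RASGRP1 is a guanine nucleotide exchange factor that loads RAS with GTP downstream of the T-cell receptor. RAS then drives the RAF, MEK and ERK kinases, and ERK activity induces immediate-early genes, among them the transcription factors EGR1, FOS, JUN and NR4A1. DUSP5 and DUSP6 remove phosphate from ERK, and the Sprouty proteins SPRY1 and SPRY2 dampen signalling from receptors to ERK. All 4 are themselves induced by the pathway, which makes them negative feedback regulators, and CD69 is a surface protein that appears early when T cells are activated.

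Sequence before the start of EGR1 and FOS is shown because FOS and EGR1 had the 2 highest folds between the lines among the 10 genes, and because ERK acts on such promoters through serum response factor and its partners. In GRCh38.p14, the RefSeq stretch of EGR1 is chr5:138465339-138465448 on the plus strand and covers 140 to 31 bases before the annotated start. Its capitals mark 2 CArG boxes, the motif bound by serum response factor. The stretch of FOS is chr14:75278674-75278773 on the plus strand, 154 to 55 bases before the RefSeq start, and its capitals mark TGACG, the core of a cAMP response element.
EGR1: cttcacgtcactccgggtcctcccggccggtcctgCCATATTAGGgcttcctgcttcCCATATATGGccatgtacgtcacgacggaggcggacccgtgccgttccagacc
FOS: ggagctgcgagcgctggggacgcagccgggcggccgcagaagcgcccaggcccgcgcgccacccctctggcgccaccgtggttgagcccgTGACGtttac

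RefSeq windows of 250 bases before to 50 after a start were found for 8 of the 10 genes, 12 windows in all. CD69 and DUSP5 had none. Both strands were searched. A CArG box was in the window of 1 gene, EGR1, and in 1.29% of 35116 promoters. A box more than 250 bases before a start, in FOS or another gene, lay outside the search. TGACG was in windows of 4 genes, EGR1, FOS, JUN and SPRY2. That is 4 of the 12 windows, against 24.6% of promoters. TATAAA was in the window of FOS alone, against 11.5% of promoters. The longer motifs TGACGTCA, which contains TGACG, and TGANTCA were in no window of these genes and in 1.85% and 7.71% of promoters. These matches describe letters in the windows and do not show binding.

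The total count was 36792076 to 42842791 reads per library in HPB-ALL and 22884785 to 36098045 in KOPTK1. SHQ1 itself was at 70.3, 71.8 and 70.9 RPKM (reads scaled by exon length and by library size) in libraries 7, 8 and 9. It was at 47.6, 46.4 and 49.1 in libraries 10, 11 and 12. In KOPTK1 it was at 45.7, 44.1 and 46.4 in libraries 1, 2 and 3, and at 41.9, 41.8 and 39.3 in libraries 4, 5 and 6. All 8 T-lineage markers reached 1 RPKM in both lines, with summed levels of 1004 to 1048 RPKM in HPB-ALL and 1008 to 1060 in KOPTK1. None of the 3 myeloid markers did. Of the 3 B-lineage markers, 1 reached it in HPB-ALL and 2 in KOPTK1, with summed levels of 40.8 to 46.3 and 7.35 to 25.8 RPKM. Of the 3 erythroid markers 1 did in each line, and of the 2 fibroblast or epithelial markers 1 did. Their summed levels were at most 2.58 and 1.715 RPKM in any library. TLX3 is a transcription factor known to be active in HPB-ALL through a rearrangement. It was at 0 to 0.0364 RPKM in the libraries labelled HPB-ALL, and at 0 to 0.297 in KOPTK1. This marker was thus all but absent where the label says HPB-ALL, unlike what is known of that line. The line names used throughout are those of the labels, and whether they are right was not tested. LMO2, a T-ALL oncogene, was at 0.0786 to 0.264 RPKM in HPB-ALL and 0.974 to 2.49 in KOPTK1. The KOPTK1 libraries did not form 1 set. On the leading principal component of 21495 genes, with 88.0% of the variance, HPB-ALL libraries lay at -50.1 to -42.3, KOPTK1 libraries 1, 2 and 3 at 23.0 to 23.8, and libraries 4, 5 and 6 at 68.6 to 69.0. TAL1 was at 39.5 to 45.1 RPKM in HPB-ALL, 23.6 to 26.5 in libraries 1 to 3 and 12.5 to 12.8 in libraries 4 to 6, and CD79A at 40.3 to 45.9, 24.0 to 24.6 and 5.87 to 7.17. Depth moved with these sets too, at 33905452 to 36098045 reads in libraries 1 to 3 and 22884785 to 25938761 in libraries 4 to 6. The part of these differences in the results was not tested, and the tests of the 10 genes were repeated without each of these KOPTK1 sets. The HPB-ALL libraries also lay in 2 narrower sets on this component, libraries 7 to 9 at -50.1 to -49.5 and libraries 10 to 12 at -42.7 to -42.3, as SHQ1 did. Their part was not tested either, and leaving out one or the other changed the calls of DUSP5 and NR4A1, given below, and of none of the other 8 genes.

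All 10 genes were detected. With a median of at least 1 RPKM as the minimum, 9 genes passed in HPB-ALL and all 10 in KOPTK1; DUSP6, at 0.587 RPKM in HPB-ALL, was the one below it. In HPB-ALL the order of the median levels was RASGRP1, JUN, CD69, EGR1, SPRY2, SPRY1, DUSP5, NR4A1, FOS and DUSP6. Here DUSP5 and NR4A1, and NR4A1 and FOS, had ranges that overlapped, and every other pair of neighbours was separate. In KOPTK1 the order was JUN, EGR1, RASGRP1, CD69, FOS, SPRY1, SPRY2, NR4A1, DUSP6 and DUSP5. Ranges of neighbours overlapped there for EGR1 and RASGRP1, CD69 and FOS, SPRY1 and SPRY2, NR4A1 and DUSP6, and DUSP6 and DUSP5. RASGRP1 led in HPB-ALL, above 72.4% of the genes that reached the minimum, and JUN led in KOPTK1, above 91.4%. FOS stood above 2.27% of such genes in HPB-ALL and above 59.3% in KOPTK1.

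**Figure D1:**
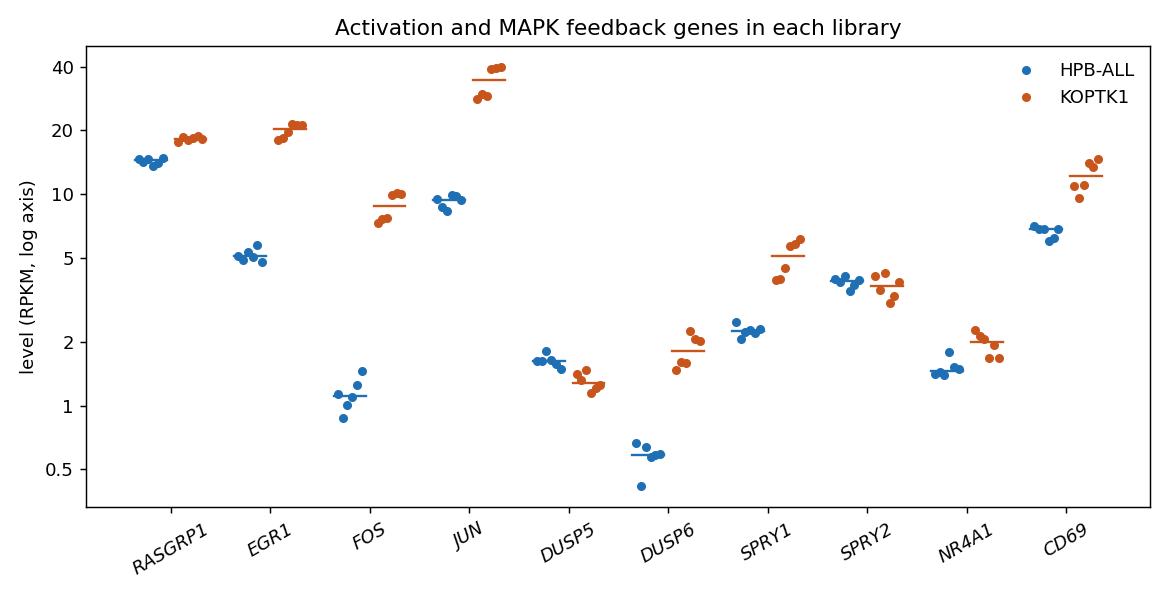
Level of each of the 10 genes in RPKM on a log axis. Each point is 1 library, in order of its number from left to right, and each line is the median of the 6 libraries of HPB-ALL (blue) or KOPTK1 (orange). FOS lies near 1 RPKM in HPB-ALL and between 7.32 and 10.1 in KOPTK1, while the points of SPRY2 overlap.

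FOS, EGR1 and JUN were 3.69- to 7.66-fold higher in KOPTK1, whereas the DUSP and Sprouty genes were divided. Of the 10 genes, 9 differed between the lines at an adjusted p under 0.05 in edgeR's quasi-likelihood test, 8 higher in KOPTK1 and 1, DUSP5, lower. Over the 27834 genes tested, 63.9% differed and 32.6% were higher in KOPTK1, so a call alone was common. The median log2 difference was 1.003 over the 10 genes and 0.02 over all genes tested. The median absolute log2 difference over all genes was 0.35. The ranges of the 2 lines did not overlap for 8 of the 10 genes, against 45.7% of the 24138 genes at 1 RPKM in either line. Of the 10, 7 were higher in KOPTK1 without overlap, against 22.9% of the same 24138 genes. KOPTK1 libraries 1 to 3 lay between HPB-ALL and libraries 4 to 6, without overlap, for 7 of the 10 genes. The same held for 34.9% of the 24138 genes. The 10 genes were chosen with earlier results of these data known, so these contrasts with all genes only describe them. Without KOPTK1 libraries 1 to 3, 9 of the 10 differed (68.0% of all genes), and without libraries 4 to 6, 8 did (50.2%). Without HPB-ALL libraries 7 to 9, 7 differed (51.8%), and without libraries 10 to 12, 9 did (53.8%). In both lines the counts are those of bulk cultures, in which fewer cells of a type and less RNA per cell cannot be told apart. The line and the table it was deposited in also cannot be told apart.

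Upstream, RASGRP1 (chr 15, 38488103 to 38565575, minus strand, GRCh38) was the most even of the 10 genes in KOPTK1. Here and below, a set of 3 levels gives the lowest library, the median and the highest library of a line. RASGRP1 was at 13.6, 14.4 and 14.8 RPKM in HPB-ALL and 17.7, 18.3 and 18.8 in KOPTK1. The groups did not overlap, and libraries 1 to 3 and 4 to 6 of KOPTK1 lay within the same narrow range. The log2 difference, KOPTK1 minus HPB-ALL, was 0.34 (SE 0.03, adjusted p = 9.4e-07), a 1.27-fold higher level, and it was 0.35 without libraries 1 to 3 and 0.33 without libraries 4 to 6. Its size was near the median of all genes, as 48.9% of the genes tested differed by less. RASGRP1 shares 105 bases of exon with ENSG00000259326 on the opposite strand, and whether strand was used in counting is not given in the sources used here.

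FOS (chr 14, 75278774 to 75282230, plus strand), a subunit of the AP-1 transcription factor, showed the widest gap. It was at 0.873, 1.11 and 1.46 RPKM (lowest, median, highest) in HPB-ALL and 7.32, 8.77 and 10.1 in KOPTK1. Every KOPTK1 library was above every HPB-ALL library, and libraries 4, 5 and 6 were the 3 highest. FOS was 7.66-fold higher in KOPTK1 (log2 difference 2.94, SE 0.13, adjusted p = 4.4e-09). Only 108 to 181 reads per library stood behind the HPB-ALL values, against 674 to 813 in KOPTK1. The log2 difference was 3.12 without libraries 1 to 3 and 2.72 without libraries 4 to 6.

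JUN (chr 1, 58780788 to 58784327, minus strand) codes for the AP-1 subunit that pairs with FOS. Its levels were 8.34, 9.41 and 9.87 RPKM in HPB-ALL and 28.3, 34.5 and 39.9 in KOPTK1. The lines did not overlap, and within KOPTK1 libraries 1 to 3 were at 28.3, 29.8 and 29.2 RPKM and libraries 4 to 6 at 39.2, 39.6 and 39.9, the high side of a clear gap. JUN was 3.69-fold higher in KOPTK1 (log2 difference 1.88, SE 0.10, adjusted p = 1.8e-08). Without libraries 1 to 3 the log2 difference was 2.08, and without libraries 4 to 6 it was 1.65.

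EGR1 (chr 5, 138465490 to 138469315, plus strand), a zinc-finger factor whose promoter holds the CArG boxes printed above, was at 4.79, 5.08 and 5.72 RPKM in HPB-ALL and 17.96, 20.4 and 21.4 in KOPTK1. The lines were far apart, and libraries 4 to 6 were again the 3 highest. EGR1 was 3.86-fold higher in KOPTK1 (log2 difference 1.95, SE 0.06, adjusted p = 1.1e-10). The log2 difference was 2.03 without libraries 1 to 3 and 1.85 without libraries 4 to 6.

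NR4A1 (chr 12, 52022832 to 52059507, plus strand), an orphan nuclear receptor induced by T-cell receptor signals, had another order within KOPTK1. It was at 1.40, 1.46 and 1.80 RPKM in HPB-ALL and 1.68, 2.01 and 2.28 in KOPTK1. The ranges overlapped, since libraries 4 and 6 were at 1.68 RPKM, below library 10 of HPB-ALL, and libraries 1, 2 and 3 were the 3 highest. The log2 difference was 0.38 (SE 0.09, adjusted p = 0.0023). Without libraries 1 to 3 it was 0.21 and no longer passed (edgeR adjusted p = 0.055), and without libraries 4 to 6 it was 0.51. It was 0.29 without HPB-ALL libraries 7 to 9, where it did not pass either (edgeR adjusted p = 0.066). NR4A1 shares 754 bases of exon with NR4A1AS on the opposite strand.

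Of the phosphatases, DUSP6 was higher in KOPTK1 and DUSP5 lower. DUSP6 (chr 12, 89347232 to 89353271, minus strand), which acts on ERK in the cytoplasm, was at 0.414, 0.587 and 0.668 RPKM in HPB-ALL and 1.47, 1.81 and 2.25 in KOPTK1. No KOPTK1 library came near the HPB-ALL range, and libraries 4 to 6 were the highest. DUSP6 was 3.15-fold higher in KOPTK1 (log2 difference 1.65, SE 0.13, adjusted p = 2.6e-07), with 1.85 without libraries 1 to 3 and 1.42 without libraries 4 to 6. It shares 1789 of its 4546 bases of exon with ENSG00000274021 on the opposite strand, a gene with median counts of 22.6 in HPB-ALL and 55.7 in KOPTK1. Reads in the shared part could belong to either gene.

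DUSP5 (chr 10, 110497838 to 110511544, plus strand), which acts on ERK in the nucleus, was at 1.49, 1.62 and 1.81 RPKM in HPB-ALL and 1.15, 1.28 and 1.47 in KOPTK1. The ranges nearly met, with library 3 of KOPTK1 at 1.47 RPKM just below library 12 of HPB-ALL at 1.49. The log2 difference was -0.33 (SE 0.08, adjusted p = 0.0031), a level 1.26-fold higher in HPB-ALL. It was -0.46 without libraries 1 to 3, and -0.23 without libraries 4 to 6, where it no longer passed (edgeR adjusted p = 0.061). Without HPB-ALL libraries 7 to 9 it was -0.27 and did not pass either (edgeR adjusted p = 0.054). Its 73 to 136 reads per library in KOPTK1 were the fewest of any of the 10 genes in that line.

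The Sprouty genes also differed from each other. SPRY1 (chr 4, 123396795 to 123403760, plus strand) was at 2.07, 2.25 and 2.49 RPKM in HPB-ALL and 3.94, 5.07 and 6.12 in KOPTK1. The lines did not overlap, and libraries 4, 5 and 6, at 5.65, 5.79 and 6.12 RPKM, were above libraries 1, 2 and 3, at 3.94, 3.98 and 4.48. SPRY1 was 2.19-fold higher in KOPTK1 (log2 difference 1.13, SE 0.12, adjusted p = 2.2e-06), and the log2 difference was 1.35 without libraries 1 to 3 and 0.87 without libraries 4 to 6.

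SPRY2 (chr 13, 80335976 to 80340951, minus strand) was the gene that did not pass the test. It was at 3.47, 3.87 and 4.09 RPKM in HPB-ALL and 3.06, 3.69 and 4.24 in KOPTK1, and the ranges overlapped widely. The log2 difference was -0.06 (SE 0.08, adjusted p = 0.51). Without libraries 1 to 3 it was -0.20 and passed (edgeR adjusted p = 0.040), and without libraries 4 to 6 its sign turned, to 0.04 (edgeR adjusted p = 0.67).

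CD69 (chr 12, 9752486 to 9760901, minus strand), the surface marker of early activation, was at 6.01, 6.82 and 7.08 RPKM in HPB-ALL and 9.55, 12.2 and 14.6 in KOPTK1. The lines did not overlap, and libraries 4 to 6 were the 3 highest. CD69 was 1.83-fold higher in KOPTK1 (log2 difference 0.87, SE 0.10, adjusted p = 5.9e-06), with 1.06 without libraries 1 to 3 and 0.65 without libraries 4 to 6.

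**Figure D2:**
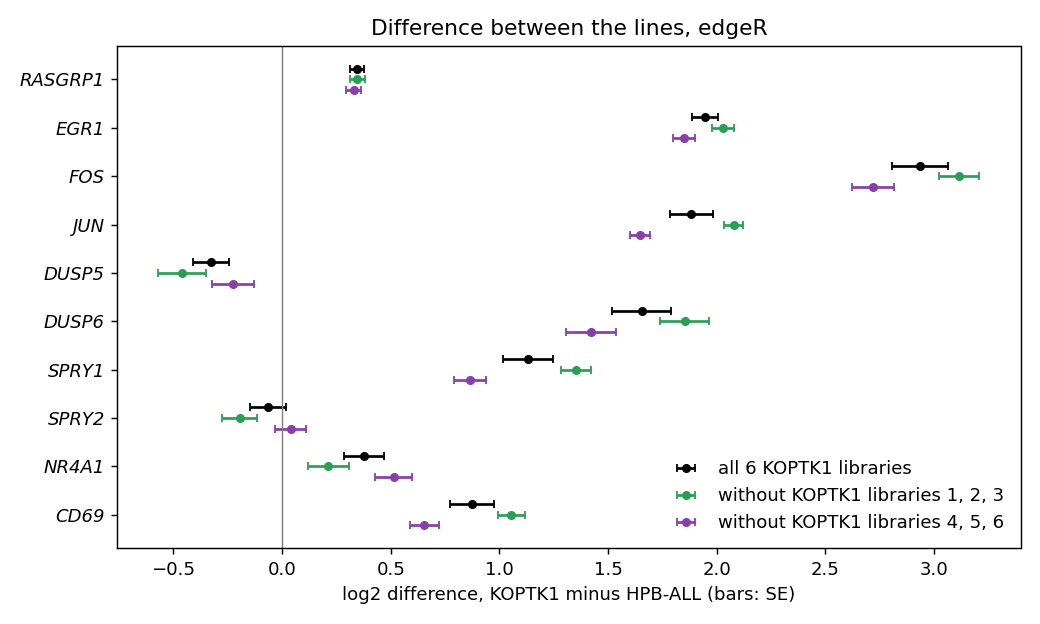
Log2 difference between the lines, KOPTK1 minus HPB-ALL, from edgeR for each of the 10 genes, with bars for the SE. Black points use all libraries, green points leave out KOPTK1 libraries 1, 2 and 3, and purple points leave out libraries 4, 5 and 6; RASGRP1 stays near 0.34 in all 3, and SPRY2 lies on both sides of 0.

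The libraries of KOPTK1 spread more than those of HPB-ALL. The highest over the lowest library was 1.20 for the median gene at the minimum in HPB-ALL and 1.38 in KOPTK1. In KOPTK1 it was 1.06 for RASGRP1 and 1.55 for SPRY1, the widest of the 10. In HPB-ALL it was 1.08 for RASGRP1 and 1.68 for FOS, the widest there.

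The wider pathway was read from a list of 59 other genes in 5 groups, of which 57 could be tested. IL2RA and TNFRSF9 were too low, at no more than 0.0916 RPKM in any library. Of the 57, 50 differed between the lines (63.9% of all genes did), 27 higher and 23 lower in KOPTK1, with a median log2 difference of 0.08. Without KOPTK1 libraries 1 to 3, 52 differed (68.0% of all genes), and without libraries 4 to 6, 41 did (50.2%). Without HPB-ALL libraries 7 to 9, 40 of the 58 then tested differed (51.8%), and without libraries 10 to 12, 47 of 58 did (53.8%). Each gene named below, SRF apart, passed with any of these sets left out.

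Among the other immediate-early transcription factors, 12 of 16 were higher in KOPTK1 (32.6% of all genes were) and 3 were lower. The median log2 difference of the 16 genes was 0.72. JUND, a further AP-1 subunit, had the highest level of its group, with a median (as for each level below) of 24.1 RPKM in HPB-ALL and 38.1 in KOPTK1 (log2 difference 0.68, SE 0.10, edgeR adjusted p = 7.7e-05). EGR3, a relative of EGR1, differed most upward, from 0.269 RPKM in HPB-ALL to 1.001 RPKM in KOPTK1 (log2 difference 1.90, SE 0.12, edgeR adjusted p = 4.1e-08). FOSL2, a FOS relative, was the lowest in KOPTK1 against HPB-ALL, at 1.07 and 1.93 RPKM (log2 difference -0.77, SE 0.17, edgeR adjusted p = 0.0012). The difference of FOSL2 was -1.31 without KOPTK1 libraries 1 to 3 and -0.40 without libraries 4 to 6, and in both cases 12 of the 16 genes were higher in KOPTK1. The direction of the FOS family was therefore not shared by every gene in it.

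The list of other feedback regulators, which also held RAS GTPase-activating proteins such as NF1 and ETS factors such as ETV4, was divided. Of 13, 4 were higher (32.6% of all genes were) and 6 lower in KOPTK1, and the median log2 difference was -0.12. The balance turned without KOPTK1 libraries 4 to 6, with 4 higher and 3 lower, and without HPB-ALL libraries 7 to 9, with 4 and 2. It was 4 and 7 without KOPTK1 libraries 1 to 3, and 4 and 6 without HPB-ALL libraries 10 to 12. NF1, a RAS GTPase-activating protein, had the highest level, at 15.6 RPKM in HPB-ALL and 21.5 in KOPTK1 (log2 difference 0.47, SE 0.05, edgeR adjusted p = 1.8e-06). ETV4, an ETS factor induced by ERK, was at 0.52 and 1.54 RPKM (log2 difference 1.42, SE 0.19, edgeR adjusted p = 1.9e-05). ERRFI1, an inhibitor of EGF receptor signalling, was at 1.29 and 0.624 RPKM (log2 difference -0.95, SE 0.18, edgeR adjusted p = 0.00042), a difference of -1.41 without KOPTK1 libraries 1 to 3 and -0.64 without libraries 4 to 6.

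The RAS exchange factors, RAS proteins and kinases mostly differed little in size. Of 17, 4 were higher (32.6% of all genes were) and 10 lower in KOPTK1. The median absolute log2 difference was 0.18, against 0.35 over all genes. MAP2K2, which codes for MEK2, had the highest level, at 67.3 RPKM in HPB-ALL and 56.9 in KOPTK1 (log2 difference -0.21, SE 0.04, edgeR adjusted p = 0.00041). SOS1, a RAS exchange factor, was at 7.05 and 12.8 RPKM (log2 difference 0.82, SE 0.07, edgeR adjusted p = 6.2e-07), and RPS6KA1, a kinase activated by ERK, at 22.2 and 9.74 RPKM (log2 difference -1.20, SE 0.20, edgeR adjusted p = 0.00012). RPS6KA1 was at -1.84 without KOPTK1 libraries 1 to 3 and -0.77 without libraries 4 to 6, when 5 genes were higher and 10 lower, and 3 higher and 8 lower.

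All 8 genes that act upstream in T cells differed (63.9% of all genes did), 5 higher and 3 lower in KOPTK1. Without KOPTK1 libraries 1 to 3, 7 differed (68.0% of all genes), and without libraries 4 to 6, 6 did (50.2%). Without HPB-ALL libraries 7 to 9, 6 differed (51.8%), and without libraries 10 to 12, 7 did (53.8%). LCK, the kinase that starts T-cell receptor signalling, had the highest level, at 223.9 RPKM in HPB-ALL and 186.1 in KOPTK1 (log2 difference -0.28, SE 0.04, edgeR adjusted p = 3.4e-05). The adaptor LAT was at 34.6 and 66.0 RPKM (log2 difference 0.95, SE 0.08, edgeR adjusted p = 5.9e-07), and the kinase ZAP70 at 149.3 and 82.2 RPKM (log2 difference -0.86, SE 0.13, edgeR adjusted p = 4.7e-05). Receptor-proximal genes thus lay on both sides.

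Of the 5 other activation surface genes, the 3 that could be tested all differed (63.9% of all genes did), 2 higher and 1 lower in KOPTK1. CD28, a costimulatory receptor, had the highest level, at 43.5 RPKM in HPB-ALL and 33.2 in KOPTK1 (log2 difference -0.40, SE 0.04, edgeR adjusted p = 7.4e-07). CD44, an adhesion receptor of activated and memory T cells, was at 0.0213 to 0.328 RPKM in HPB-ALL and 4.77 to 8.77 in KOPTK1 (log2 difference 5.61, SE 0.44, edgeR adjusted p = 2.0e-07). The difference of CD44 was 5.94 without KOPTK1 libraries 1 to 3, 5.20 without libraries 4 to 6, 4.75 without HPB-ALL libraries 7 to 9 and 7.81 without libraries 10 to 12. ICOS was at 0.95 RPKM in HPB-ALL and 9.54 in KOPTK1 (log2 difference 3.26, SE 0.20, edgeR adjusted p = 3.2e-08). CD44 and ICOS thus differed by more than any of the 10 genes, CD69 included. So did DUSP4 of the feedback list (log2 difference 3.435), at no more than 0.855 RPKM in any library.

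**Figure D3:**
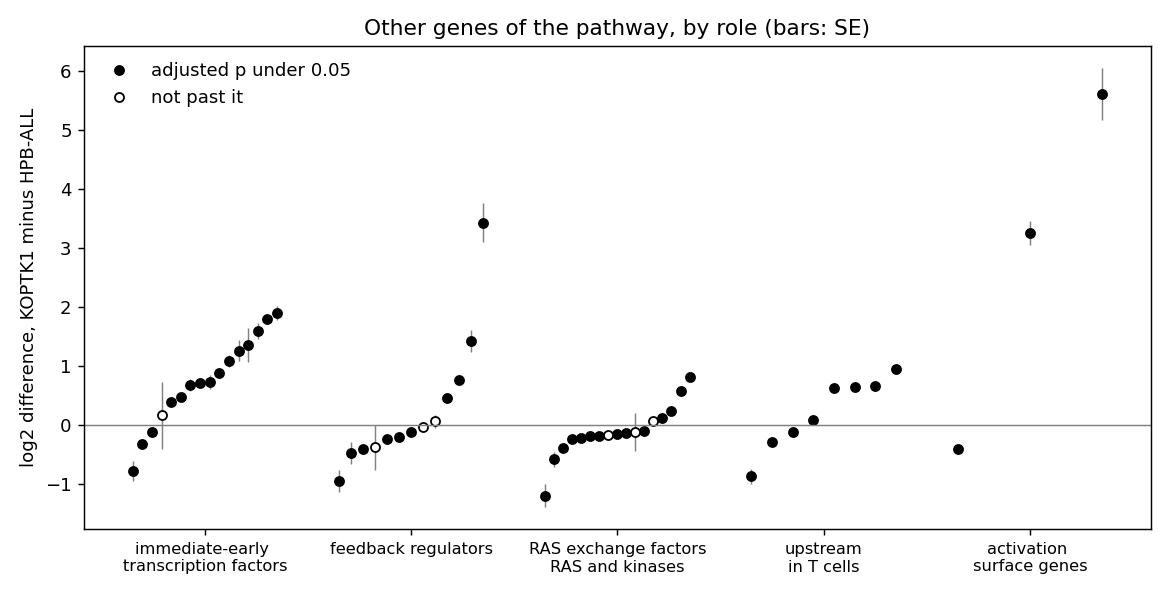
Log2 difference between the lines, KOPTK1 minus HPB-ALL, for the 57 other pathway genes that could be tested, in 5 groups by role and sorted within each. Filled points passed an adjusted p under 0.05 in edgeR, open points did not, and bars are the SE; 12 filled points of the immediate-early genes lie above 0 and 3 below, and the RAS and kinase genes run from -1.20 (RPS6KA1) to 0.82 (SOS1).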

How the data were processed

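RNA was depleted of rRNA and sequenced as paired ends. The submitters' processing notes name Trimmomatic 0.36, STAR 2.5.4b, Picard 2.18.7, featureCounts 1.6.2, edgeR 3.22.3 and hg38, without their order. The paper's methods name hg19 for its splicing work. The authors deposited 1 table per line with expected counts per gene in 6 library columns, partly fractional, although the table names say RPKM. They were rounded for the count tests. The exon length in the same tables was used for RPKM.

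The 12 library columns are headed by numbers and were tied to a line because each table bears the name that the labels of that line's 6 samples give. This is a judgement, and 0 columns were tied to one sample or shRNA. The planned comparison of shSHQ1 with Control was not run. The deposited logFC, logCPM, F, PValue and FDR columns hold the authors' own comparison and were not used.

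Lines were compared with edgeR 4.0.16 in R 4.3.3 (quasi-likelihood test, TMM, filterByExpr, Benjamini-Hochberg over all 27834 genes kept), with 6 libraries per line. The SE was the log2 difference divided by the square root of F. Both shRNAs share a line's spread, so p-values measure the spread between these libraries. The labels do not name separate cultures. A figure legend of the paper covers qPCR and RNA-Seq panels and speaks of biological replicates. It does not say that the RNA-Seq libraries are such replicates. Each line is 1 culture line. Depth was 22884785 to 42842791 counts per library. Scripts were tested on simulated data. Symbols matched 95.9% of identifiers.

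The 10 genes, the pathway list and the markers were chosen with earlier results of these data known. Named from the pathway list were, per group, the gene with the highest level and those with the largest difference each way among genes at 1 RPKM in either line. CD79A, TAL1, TLX3 and LMO2 come from the marker lists. IL2RA, TNFRSF9, SRF, ELK1, ICOS and DUSP4 were named after their values were seen. Alternatives were DESeq2 1.42.0, limma 3.58.1, other scalings, no filter, and leaving out each library. Leaving out KOPTK1 libraries 1 to 3 or 4 to 6, or HPB-ALL libraries 7 to 9 or 10 to 12, was chosen after seeing the data.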

Additional observations from a re-analysis of the deposited data

Results flagged for a closer look

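In each line, the lowest and highest of the 6 libraries were set against the nearest of the others for each of the 10 genes, 20 groups of libraries in all. A library was singled out where that gap, as a share of the group's range, was above Dixon's critical value for 6 values, which chance gives for about 1 in 20 groups. This held for 2 groups. DUSP6 in HPB-ALL was at 0.414 RPKM in library 8, and the next library was at 0.574. NR4A1 in HPB-ALL was at 1.80 RPKM in library 10, and the next was at 1.52.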

How the results depend on the processing

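Of 230 values of single genes under 23 alternatives each, 224 kept their direction and side of the threshold. The other 6 all came from leaving out a set of 3 libraries: DUSP5 (-0.23 without libraries 4 to 6, -0.27 without 7 to 9), NR4A1 (0.21 without libraries 1 to 3, 0.29 without 7 to 9), and SPRY2 (-0.20 without libraries 1 to 3, and turned to 0.040 without libraries 4 to 6). The cause was not tested. The members past the threshold numbered 9 under the other scalings, tools and filter and without each library in turn. In limma on log2(RPKM + 1), a scale that understates low genes, the differences of DUSP6 and FOS were 0.84 and 2.19. Leaving out 1 library at a time gave 16926 to 18346 genes past it, against 17775. No scaling moved the median log2 difference of all genes by more than 0.0453. At a minimum of 10 RPKM, 1 gene was detected in HPB-ALL and 4 in KOPTK1. A change of pseudocount was not run because the tables hold counts. No paired analysis was possible because the columns carry no replicate number. Ranked by CPM, with no account of length, 6 of the 10 genes kept their place in each line.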
